A study of Mus musculus with 6 samples.

Results

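The immediate early transcription factors examined here were Fos, Fosb, Jun, Junb, Jund, Egr1, Egr2, Egr3, Ier2 and Nr4a1, 10 of the 41079 genes listed. They were chosen by name, as the rows whose gene symbol equals one of these names, and each name matched 1 row. All 10 had reads in at least 5 of the 6 libraries, and 9 reached the mean of 1 TPM (transcripts per length, scaled to the same total in each library) that a gene needed to be tested, Egr3 being the exception. The cells were D10, a single cloned line of mouse CD4+ helper T cells that recognises conalbumin, maintained with interleukin-2. Cells kept at 37°C throughout (non-acclimated) were compared with cells moved to 26°C for 24 h (cold-acclimated), with 3 biological replicates of each, and neither the labels nor the methods name an antigen or other stimulus given to these samples. The comparison asks how gene expression differs once T cells have adapted to a low temperature.

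Immediate early genes are transcribed within minutes of a signal, without the need for new protein, and their RNAs are short-lived. Fos-family proteins pair with Jun-family proteins to form AP-1, Egr proteins are zinc finger factors that bind GC-rich sites, and Nr4a proteins are nuclear receptors that act without a known ligand. In T cells these factors follow antigen receptor signaling, and AP-1 joins NFAT at the genes of cytokines such as interleukin-2.

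The 6 libraries held between 16899628 and 31290854 recovered reads. T cell marker genes summed to 4102 to 5642 TPM at 37°C and 4939 to 5900 TPM at 26°C, with 0 of the 13 tested markers called in either direction (1 higher with median of ratios scaling). Of the 16 T cell markers, 3 were under 1 TPM in every library. B cell markers summed to 2.1 to 3.62 TPM and 1.02 to 2.06 TPM, and 9 of 10 were under 1 TPM in every library. Macrophage and monocyte markers summed to 2.87 to 16.0 TPM and 2.9 to 21.5 TPM, and 6 of 9 were under 1 TPM in every library. Cd4, which defines the helper lineage of the line, was at 1.09, 0.04 and 310 TPM in replicates 1, 2 and 3 at 37°C and at 1.30, 0.35 and 328 TPM at 26°C, so the libraries of replicates 1 and 2 went against that label and those of replicate 3 did not. Trac (15 and 12.8 TPM there, 129 to 207 TPM elsewhere), Cd28 and Cd3d were lowest in replicate 2 at both temperatures. Lat and Gata3 were highest in replicate 2 at both temperatures. The part of these differences in the results was not tested. In bulk RNA, fewer cells expressing a gene and less RNA per cell cannot be told apart.

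None of the 9 tested immediate early factors passed the test in either direction. A gene was called when its adjusted p was under 0.05 and its change was at least 1 on the log2 scale, and over all 12227 tested genes 2.63% were called higher and 16% lower in cold-acclimated cells. At an unadjusted p under 0.05, 0 of the 9 factors passed in limma and 0 with voom on the recovered reads, against 37.7% and 36.1% of all tested genes. Voom called 0 factors, beside 3.34% of all genes higher and 13.9% lower. Limma with the replicate number as a block also called 0, beside 3.75% and 21.9%. In that fit 2 factors had an unadjusted p under 0.05 (Jun and Nr4a1), beside 48.4% of all genes, and 1 an adjusted p under 0.05 (Jun), beside 35.9%. The change of the median factor was 0.16 (log2), beside -0.34 for all tested genes, and 8 of 9 factors lay above that overall median. Scaling by the median of ratios moved these medians to 0.39 and 0.02, called 0 factors, and called 6.56% of all genes higher and 8.79% lower. The lean of all genes toward lower values thus depended on the scaling, and the authors' own test used the median of ratios. The replicates of these genes varied more than those of most genes. The median standard error was 0.54 for the factors and 0.32 for all tested genes.

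On GRCm39, the build of the files, Fos lies at chr12:85520664-85524048, Fosb at chr7:19036621-19043970, Jun at chr4:94937273-94940459, Jund at chr8:71150389-71153265, Egr2 at chr10:67370334-67383354, Egr3 at chr14:70314766-70320062 and Nr4a1 at chr15:101151783-101172676, while Junb and Ier2 are both on chr8. In cells kept at 37°C, Junb (mean 204 TPM), Jund (168), Egr1 (117) and Ier2 (96.6) had the highest levels per length, followed by Fos (33.4), Egr2 (15.7), Jun (11), Nr4a1 (8.04), Fosb (4.73) and Egr3 (1.13). Each neighbouring pair in this order overlapped between its replicates. After cold acclimation the order of mean TPM was Jund (235), Junb (190), Egr1 (95.2), Ier2 (90.1), Jun (23.0), Nr4a1 (13.9), Fos (12.7), Egr2 (11.2), Fosb (2.57) and Egr3 (0.0452). There, only Ier2 and Jun, Egr2 and Fosb, and Fosb and Egr3 did not overlap as neighbours.

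**Figure D1:**
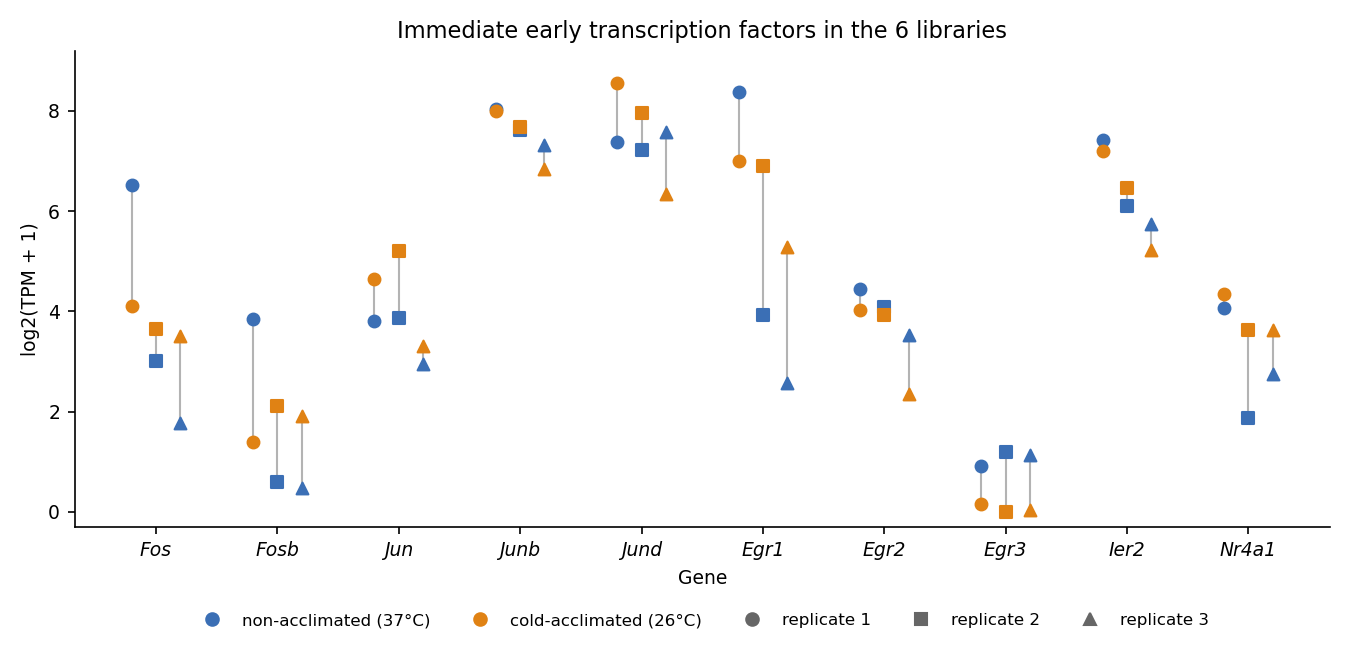
Level of the 10 immediate early transcription factors, as log2(TPM + 1), in the 3 non-acclimated (blue) and the 3 cold-acclimated (orange) libraries, with the marker shape giving the replicate number and a line joining libraries of the same number. For Fos, Fosb and Egr1 the orange point lies below the blue one in replicate 1 and above it in replicates 2 and 3, and Egr3 is lower at 26°C in all 3 replicates.

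Fos, Fosb and Egr1 shared a pattern that differed between replicates. Fos encodes the AP-1 partner that gives the family its name, and it stood at 90.9, 6.98 and 2.44 TPM in replicates 1, 2 and 3 at 37°C and at 16.3, 11.4 and 10.4 TPM at 26°C. These values rested on 1314, 121 and 62 reads and on 297, 217 and 224 reads. The high sample was the non-acclimated replicate 1, and the other non-acclimated libraries lay below every cold-acclimated one, so the conditions overlapped.

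Fosb, the closest relative of Fos, was at 13.3, 0.516 and 0.396 TPM at 37°C and at 1.62, 3.32 and 2.75 TPM at 26°C. Again replicate 1 alone was high at 37°C, and replicates 2 and 3 there rested on 16 and 18 reads. Egr1, a zinc finger factor induced by mitogens and the antigen receptor, was at 333, 14.2 and 4.92 TPM at 37°C and at 128, 120 and 38.2 TPM at 26°C. The spread of Egr1 at 37°C was larger than its mean (117 ± 187 TPM, SD, n = 3), while the cold-acclimated mean was 95.2 ± 49.5 TPM (n = 3). Fos showed the same relation, with 33.4 ± 49.8 TPM against 12.7 ± 3.14 TPM (SD, n = 3 each).

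Within replicate 1, cold-acclimated cells held 0.384 times the Egr1 level of non-acclimated cells, whereas in replicates 2 and 3 they held 8.41 and 7.76 times. The ratios for Fosb were 0.122, 6.45 and 6.94, and those for Fos 0.179, 1.64 and 4.26. Being lower in replicate 1 and higher in replicates 2 and 3 was found for 3 of the 10 factors and for 3.44% of all tested genes. These 3 are the genes from which the pattern was read, so the comparison is a description only. Over all 6 libraries, the change was -0.01 on the log2 scale for Fos (SE 1.06, limma adjusted p = 0.99), 0.16 for Fosb (SE 0.85, adjusted p = 0.91) and 1.45 for Egr1 (SE 1.35, adjusted p = 0.48). The 95% interval for Egr1 ran from -1.71 to 4.60 and that for Fos from -2.49 to 2.46. In this fit, a change of several fold in either direction was therefore not detectable. With the replicate number as a block, the interval for Egr1 ran from -0.45 to 3.34 (SE 0.79, limma adjusted p = 0.19), which does not reach a several-fold decrease. For Fos it ran from -1.71 to 1.68 (SE 0.71, adjusted p = 0.99) and for Fosb from -1.63 to 1.96 (SE 0.75, adjusted p = 0.88).

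Without the non-acclimated replicate 1, the change of Egr1 was 3.16 (limma adjusted p = 0.0496) and passed the thresholds, as did 0.617% of all genes in the higher direction, that of Fos was 1.36 (adjusted p = 0.11) and that of Fosb was 1.26 (adjusted p = 0.085). With both libraries of replicate 1 left out, the changes were 2.86 for Egr1 (adjusted p = 0.18), 1.18 for Fos and 1.47 for Fosb, and 0 of all genes were called.

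**Figure D2:**
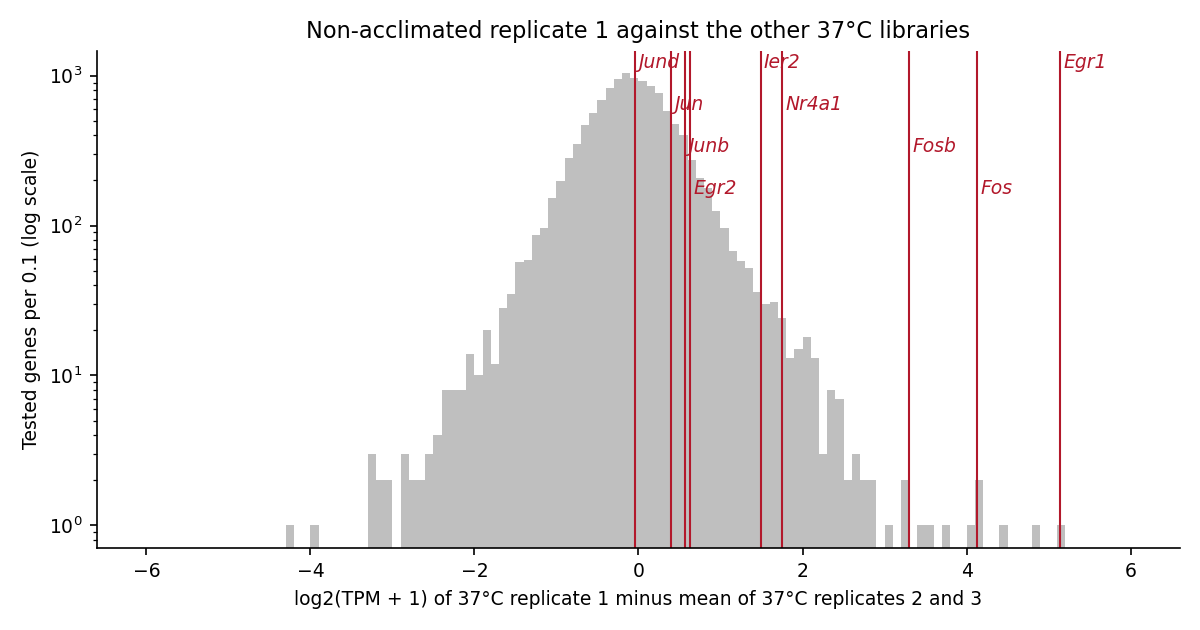
Difference between the non-acclimated replicate 1 and the mean of the other 2 non-acclimated libraries, log2(TPM + 1), for all 12227 tested genes (grey histogram, gene number on a log axis) and the 9 tested immediate early factors (red vertical lines). Egr1, Fos and Fosb lie at 5.14, 4.13 and 3.30, in the far right tail, whereas Jund lies at -0.04.

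The non-acclimated replicate 1, singled out by these same genes, stood apart for them more than for most, by measures not planned beforehand. Its level was at least 2-fold above both other non-acclimated libraries for 5 of the 9 tested factors (Fos, Fosb, Egr1, Ier2 and Nr4a1), and for 2.04% of all tested genes. For each of the 5 other libraries, 0 of the 9 tested factors were at least 2-fold above both libraries of the same condition, where the share of all tested genes was 2.04% and 4.98% for non-acclimated replicates 2 and 3 and 1.94%, 2.8% and 12.3% for cold-acclimated replicates 1, 2 and 3. Ranked by the difference of log2(TPM + 1) from the mean of the other non-acclimated libraries, Egr1 was in place 2 of 12227, Fos in place 5 and Fosb in place 11. Nr4a1 (1.75) and Ier2 (1.49) were in places 108 and 187, and the Jun-family genes and Egr2 were between -0.04 and 0.63, beside a median of -0.09 over all tested genes. In cold-acclimated cells the highest library exceeded the lowest by 1.56 times for Fos, 2.05 times for Fosb and 3.34 times for Egr1. RNA was extracted in old and new batches according to the labels, which do not assign the libraries to them, and whether a batch moves with this pattern was not tested.

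Promoters of Fos, Fosb and Nr4a1, which stood out in that library, are shown for matches to cAMP response elements. Such elements near the start site are a known entry point of signals at immediate early genes. Promoters of Egr1 and Ier2, which stood out as well, were not searched. RefSeq sequences of 300 bases (250 before to 50 after the start site) on the strand of the gene, 5′ to 3′, on build GRCm38.p6, were matched for 7 of the 10 factors. Capitals mark TGACG, the core of a cAMP response element, or its reverse complement CGTCA where the match is on the other strand. The regions are chr12:85473640-85473939 (plus strand) for Fos, chr7:19309996-19310295 (minus strand) for Fosb and chr15:101266596-101266895 (plus strand) for Nr4a1.
Fos: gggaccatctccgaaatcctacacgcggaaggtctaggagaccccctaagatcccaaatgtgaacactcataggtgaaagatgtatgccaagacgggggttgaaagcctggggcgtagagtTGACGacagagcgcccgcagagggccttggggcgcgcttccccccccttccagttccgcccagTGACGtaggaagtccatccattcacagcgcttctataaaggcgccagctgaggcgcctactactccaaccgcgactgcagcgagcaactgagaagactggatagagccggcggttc
Fosb: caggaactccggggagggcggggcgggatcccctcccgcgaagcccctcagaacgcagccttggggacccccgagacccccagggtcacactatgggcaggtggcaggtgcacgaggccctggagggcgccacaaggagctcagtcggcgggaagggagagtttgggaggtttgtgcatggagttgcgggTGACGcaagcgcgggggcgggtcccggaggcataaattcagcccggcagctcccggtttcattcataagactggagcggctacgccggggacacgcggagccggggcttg
Nr4a1: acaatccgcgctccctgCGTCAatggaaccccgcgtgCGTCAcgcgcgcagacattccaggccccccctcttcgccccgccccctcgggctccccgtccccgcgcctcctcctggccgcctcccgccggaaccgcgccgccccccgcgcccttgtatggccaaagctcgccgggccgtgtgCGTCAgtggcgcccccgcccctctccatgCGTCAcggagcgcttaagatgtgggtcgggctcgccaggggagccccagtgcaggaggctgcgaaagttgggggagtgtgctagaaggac
Counted from the start site, the matches began at -129 and -66 in Fos, at -60 in Fosb, and at -233, -213, -69 and -40 in Nr4a1, all 4 of these on the reverse strand. Searched on both strands, TGACG was found in promoters of 5 of the 7 factors (Junb and Egr2 as well) and in 20.8% of the 32851 promoters in the table. A factor counted when any of its windows matched (Egr2 has 5), whereas the shares of all promoters are over single windows. The full palindrome TGACGTCA was in 0 of 7 and in 1.79% of all. TATAAA was in Fos, beginning at -33, in Junb, beginning at the start site itself (position 1), and in 13.6% of all promoters. These are matches of letters, not measured binding.

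In the Jun family, Jun was the member that was higher at 26°C in all 3 replicates. Jun, a strong transactivator among the AP-1 subunits, was at 13.0, 13.5 and 6.65 TPM at 37°C and at 24.0, 36.0 and 8.95 TPM at 26°C. Cold-acclimated replicate 3 lay within the non-acclimated range, so the conditions overlapped in 1 library. The cold-acclimated level was 1.85, 2.67 and 1.35 times the non-acclimated one in replicates 1, 2 and 3. Without a replicate term the change was 0.86 (log2, SE 0.51, limma adjusted p = 0.26). With the replicate number as a block the standard error was 0.26 and the adjusted p 0.044, with a 95% interval from 0.23 to 1.48, a change that passed the p threshold but was below the required size. Without cold-acclimated replicate 3 the change of Jun was 1.39 (adjusted p = 0.032), and without both libraries of replicate 3 it was 1.10 (adjusted p = 0.028). Jun was called in both cases, as were 3.74% and 5.41% of all genes in the higher direction.

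The Jun promoter (chr4:95052173-95052472, minus strand, same build and source) is shown for its AP-1-like site, the element through which Jun is known to act on its own gene. Capitals mark TGACNTCA, where N is any base.
Jun: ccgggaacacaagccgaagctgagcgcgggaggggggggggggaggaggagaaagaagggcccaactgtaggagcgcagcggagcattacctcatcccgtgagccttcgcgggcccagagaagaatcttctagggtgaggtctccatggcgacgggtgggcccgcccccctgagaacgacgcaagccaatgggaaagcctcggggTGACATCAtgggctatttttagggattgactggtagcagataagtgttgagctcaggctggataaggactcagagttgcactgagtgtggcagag
The match began at -45. The pattern TGACNTCA, with any base at N, was found in 8.83% of all promoters and in no other factor of the 7, while the shorter AP-1 site TGANTCA was found in 0 of 7 and in 7.81% of all.

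Junb, which can oppose Jun and drives helper T cell cytokine genes, was at 261, 195 and 158 TPM at 37°C and at 253, 203 and 114 TPM at 26°C. The conditions overlapped and the same-numbered libraries lay within 0.47 of each other on the log2 scale, for a change of -0.15 (SE 0.35, limma adjusted p = 0.79). With the replicate block, Junb had a standard error of 0.2 and a limma adjusted p of 0.57. Jund, the member that resting cells express most steadily, was at 164, 148 and 191 TPM at 37°C and spread to 376, 248 and 79.9 TPM at 26°C. Its non-acclimated replicates were tight (168 ± 21.6 TPM, SD, n = 3) and its cold-acclimated ones wide (235 ± 149 TPM, n = 3), with replicates 1 and 2 above and replicate 3 below every non-acclimated library. The change over all libraries was 0.23 (SE 0.52, adjusted p = 0.79, and SE 0.45, adjusted p = 0.71 with the replicate block). Without both libraries of replicate 3 it was 0.97 (adjusted p = 0.04), just below the required size.

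**Figure D3:**
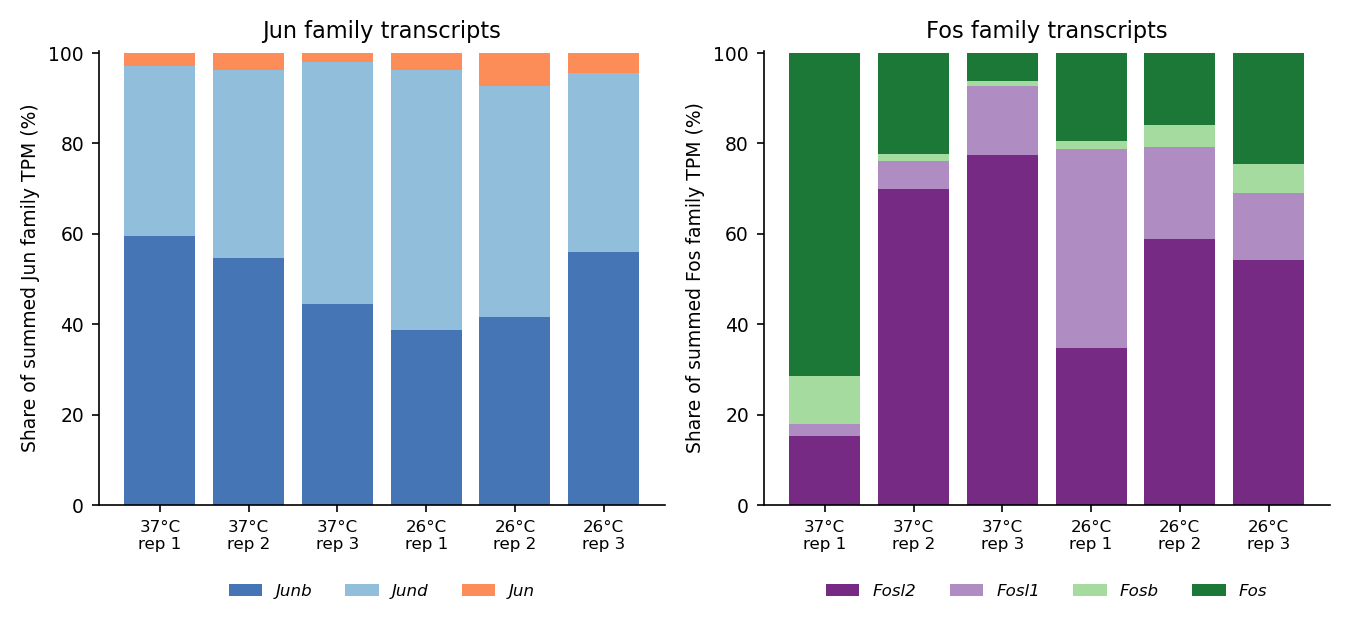
Share of each gene in the summed TPM of the Jun family (Jun, Junb, Jund; left) and of the Fos family (Fos, Fosb, Fosl1, Fosl2; right), in percent, as a stacked bar for each of the 6 libraries. Fos makes up 71.5% of the Fos family in the non-acclimated replicate 1 and at most 24.6% in any other library.

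Per length, Jun-family RNA exceeded Fos-family RNA in every library. The Jun family summed to 437, 356 and 355 TPM at 37°C and to 653, 487 and 202 TPM at 26°C. The Fos family, counted with Fosl1 and Fosl2, summed to 127, 31.3 and 39.1 TPM at 37°C and to 84.1, 71.0 and 42.4 TPM at 26°C. The ratio of the sums was 3.44, 11.4 and 9.09 in non-acclimated and 7.77, 6.85 and 4.78 in cold-acclimated replicates 1, 2 and 3, without separation of the conditions.

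Fos took 71.5%, 22.3% and 6.25% of the Fos-family TPM at 37°C and 19.4%, 16.1% and 24.6% at 26°C. In non-acclimated replicates 2 and 3 Fosl2, a Fos-related factor without a strong activation domain, made up 69.9% and 77.4%. Fosl1, its relative, was at 3.51, 1.93 and 6 TPM at 37°C and at 37.0, 14.5 and 6.26 TPM at 26°C. The Fosl1 change was 1.84 (log2, SE 0.61, limma adjusted p = 0.068), and among the settings tried it was called with the replicate block (adjusted p = 0.04, or 0.036 with median of ratios scaling as well), with quantile scaling (0.044), and without cold-acclimated replicate 3 (0.015) or both libraries of replicate 3 (0.0094). Jun itself was a small part of the Jun family, between 1.87% and 7.4%, and Junb and Jund shared the rest.

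Egr2 and Egr3 were lower at 26°C in all 3 replicates, the opposite of Egr1 in replicates 2 and 3. Both encode relatives of Egr1 that are known to restrain T cell activation and to sustain anergy. Egr2 was at 20.7, 15.9 and 10.6 TPM at 37°C and at 15.2, 14.3 and 4.11 TPM at 26°C. The conditions overlapped, with cold-acclimated replicate 3 the only library below the non-acclimated range. Its change was -0.58 (SE 0.49, limma adjusted p = 0.43, and 0.14 with the replicate block). Egr2 overlaps Ado, a thiol dioxygenase gene on the opposite strand, over 3014 bases, and since the strand setting of the counting is not given, reads of the pair may be shared. Ado stood at 35.3, 55.9 and 39.4 TPM at 37°C and at 32.3, 36.7 and 13.5 TPM at 26°C (change -0.73, adjusted p = 0.22).

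An Egr2 promoter (chr10:67537316-67537615, plus strand, same build and source) is shown for its CArG box, the site of serum response factor, which switches on many immediate early genes. Capitals mark the box.
Egr2: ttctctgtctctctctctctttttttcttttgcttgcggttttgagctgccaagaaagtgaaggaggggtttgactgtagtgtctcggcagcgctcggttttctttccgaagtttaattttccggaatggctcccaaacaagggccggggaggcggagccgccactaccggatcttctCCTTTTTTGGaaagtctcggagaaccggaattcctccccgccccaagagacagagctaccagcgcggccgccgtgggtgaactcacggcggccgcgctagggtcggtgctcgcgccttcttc
The box began at -72. A CArG box was found in 4 of the 5 Egr2 windows, in no other factor of the 7, and in 1.63% of all promoters. The boxes of the other Egr2 windows lie downstream of the printed window, at a shared site in overlapping windows. The search reached 250 bases before the start site, so boxes further away were not seen. Egr1, Egr3 and Ier2 were not searched.

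Egr3 was the only factor whose conditions did not overlap, at a very low level. It was at 0.882, 1.30 and 1.21 TPM at 37°C and at 0.112, 0 and 0.0237 TPM at 26°C, which rested on 25, 44 and 60 reads and on 4, 0 and 1 reads. All cold-acclimated libraries were lower, with 129 reads in sum before and 5 after. Of all tested genes, 41.1% did not overlap between the conditions, 31.4% being lower in all cold-acclimated libraries. Egr3 was not among the tested genes, since its mean was 0.587 TPM. By an exact two-sided permutation test of the 6 values the difference of -1.02 on the log2(TPM + 1) scale had p = 0.1, the smallest that 3 libraries against 3 allow. With no filter on low values, limma gave -1.02 (SE 0.11, adjusted p = 0.023), which was called, as were 5.29% of 21195 genes in the lower direction. On that scale a change of a gene near 1 TPM is understated. Voom on the recovered reads without the filter, an alternative chosen after seeing the data, gave -4.72 (SE 0.78, adjusted p = 0.01), with 7.99% of genes called lower.

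Nr4a1, also known as Nur77, is a nuclear receptor gene widely used as a reporter of antigen receptor signaling. It was at 15.7, 2.67 and 5.72 TPM at 37°C and at 19.2, 11.3 and 11.3 TPM at 26°C. It was higher at 26°C in each replicate, by 1.22, 4.22 and 1.97 times, but non-acclimated replicate 1 lay within the cold-acclimated range. The change was 0.96 (SE 0.54, limma adjusted p = 0.24), and with the replicate block the adjusted p was 0.056. With the block and median of ratios scaling together, Nr4a1 (1.31, adjusted p = 0.03) and Jun (1.23, adjusted p = 0.024) were both called higher, as were 8.88% of all genes. Ier2, a short nuclear protein linked to transcription during cell growth, was at 170, 67.8 and 52.4 TPM at 37°C and at 146, 87.7 and 36.6 TPM at 26°C. The conditions overlapped, and its change was -0.12 (SE 0.59, adjusted p = 0.91, and SE 0.23, adjusted p = 0.71 with the replicate block).

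**Figure D4:**
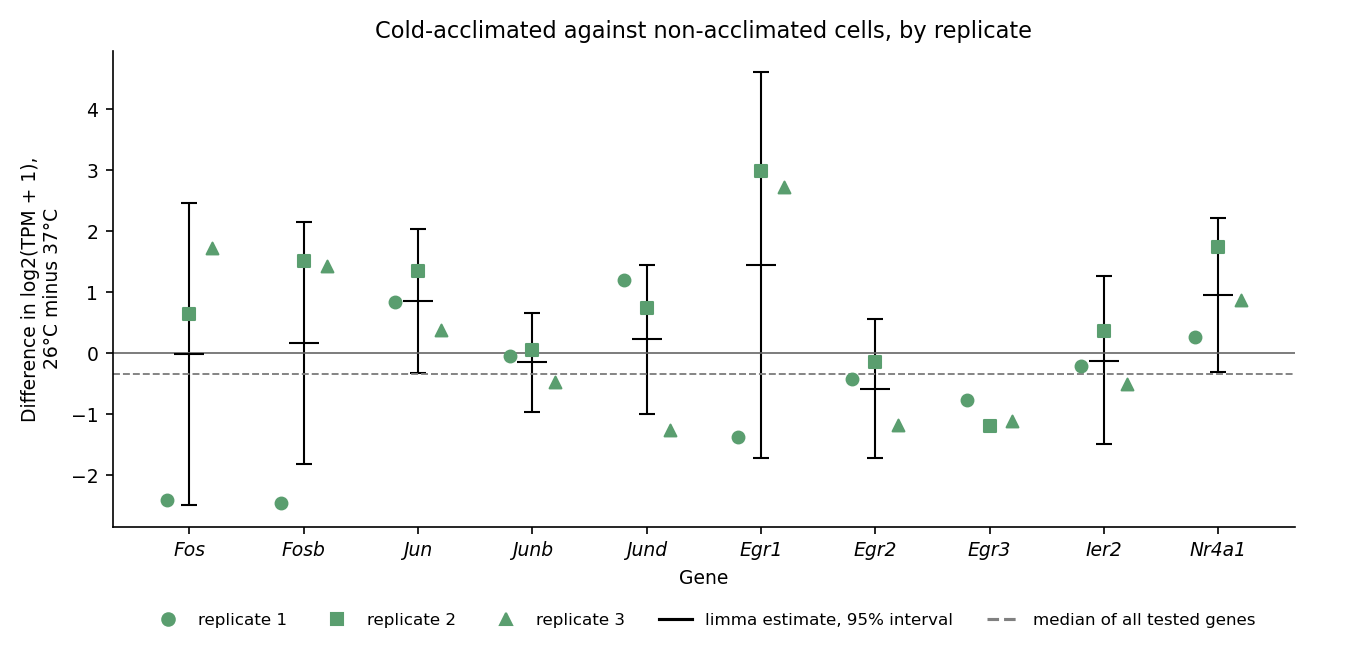
Change from 37°C to 26°C on the log2(TPM + 1) scale for each factor, as the limma estimate with its 95% interval (black bars), the difference within each replicate (green points, shaped by replicate number) and the median of all tested genes (dashed line). Every interval of the 9 tested factors, from the fit without a replicate term, spans 0. Egr3, which was not tested, is drawn without an interval. With the replicate number as a block, the intervals of Jun (0.23 to 1.48) and Nr4a1 (0.2 to 1.73), not drawn, lay above 0.

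Taken by direction within replicates, 2 of the 10 factors were higher at 26°C in all 3 replicates (Jun and Nr4a1), 2 were lower in all 3 (Egr2 and Egr3), and 6 were mixed. Over all tested genes, 18.2% were higher and 47.9% lower in all 3. Among the non-acclimated libraries, replicate 1 held the highest value of 7 of the 10 factors, and among the cold-acclimated libraries replicate 3 held the lowest of 7. Over all tested genes these shares were 26.2% and 30.8%.

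**Figure D5:**
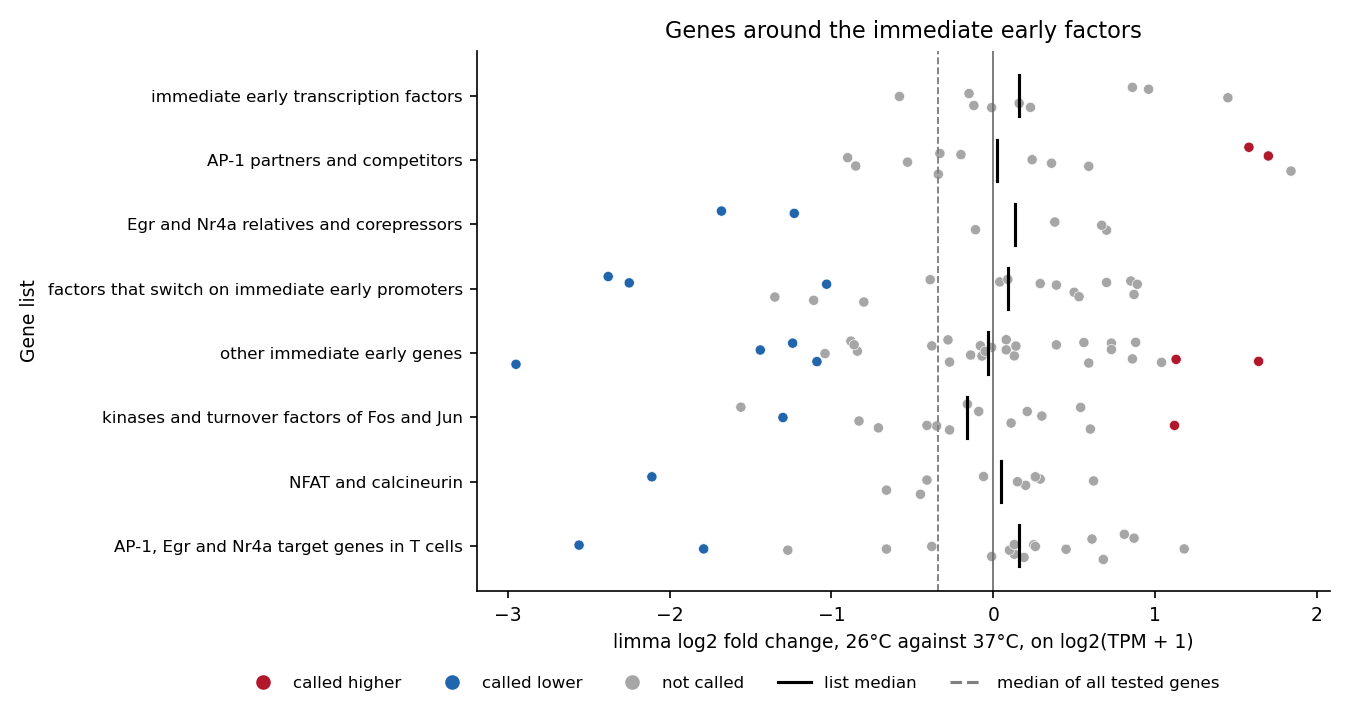
Change from 37°C to 26°C (limma, log2(TPM + 1)) of the tested genes of each list, 1 point per gene, in red where called higher, blue where called lower and grey where not called, with the list's median as a black bar and the median of all tested genes (-0.34) as a dashed line. The immediate early factors have no coloured point, whereas each of the other 7 lists holds 1 to 6.

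The other genes of the pathway were examined as lists, to be read beside the 2.63% of all tested genes called higher and the 16% called lower. With median of ratios scaling these shares were 6.56% and 8.79%. Where calls are said to be lost without a library, 1 library at a time was left out. Without both libraries of replicate 1 or of replicate 2, 0 of all genes were called. Among the partners and competitors of AP-1, 2 of 12 tested genes rose and 0 fell, and both were small Maf proteins, which lack an activation domain and compete for AP-1-like sites. Mafk went from 26.9 ± 9.25 to 88.4 ± 22.0 TPM (SD, n = 3 each; change 1.70, SE 0.32, limma adjusted p = 0.014) and Maff from 2.45 ± 1.19 to 9.18 ± 2.43 TPM (1.58, SE 0.35, adjusted p = 0.022). Mafk lost its call without non-acclimated replicate 1 or 2 or cold-acclimated replicate 2 (adjusted p up to 0.064), and Maff without non-acclimated replicate 2 or cold-acclimated replicate 1 or 2 (up to 0.088) and with no filter on low values (0.063).

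Of the relatives and corepressors of Egr and Nr4a, 0 of 6 tested genes rose and 2 fell. These were Nr4a2, a relative of Nr4a1 (4.76 ± 1.96 to 0.744 ± 0.256 TPM, change -1.68, limma adjusted p = 0.017), and Nab2, a corepressor of Egr1 (66.5 ± 15.8 to 28.1 ± 7.92 TPM, -1.23, adjusted p = 0.029), both named after their values were seen. Nr4a2 lost its call without any one library of replicates 1 and 2 (adjusted p up to 0.067) and with quantile scaling (0.062). Nab2 lost it without any one library but non-acclimated replicate 3 (up to 0.11) and with median of ratios scaling (-0.84, adjusted p = 0.1), quantile scaling (0.088) or no filter (0.056). Neither Nr4a3, another relative (0.70, adjusted p = 0.39), nor Ier5, a relative of Ier2 (0.38, adjusted p = 0.35), passed the test.

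Among the 17 factors that switch on immediate early promoters, all tested, 0 rose and 3 fell, where 16% of all tested genes fell. The 3, named after their values were seen, were Creb1, which binds cAMP response elements (20.9 ± 3.33 to 3.28 ± 1.26 TPM, SD, n = 3 each, change -2.38, SE 0.30, limma adjusted p = 0.007), Elk3, a ternary complex factor that binds beside serum response factor (46.4 ± 12.1 to 8.87 ± 2.09 TPM, -2.25, SE 0.30, adjusted p = 0.0074), and Mrtfb, a serum response factor coactivator (-1.03, adjusted p = 0.035). Creb1 and Elk3 kept their call without any single library, and Mrtfb lost it with median of ratios scaling (adjusted p = 0.082), quantile scaling (0.28) or no filter (0.068), and without any one library but cold-acclimated replicate 3 (up to 0.13). That scaling gave 4 higher and 2 lower in this list, and the replicate block 0 and 5. By the rule for named genes, Mef2d (0.89, adjusted p = 0.037) and Crtc1, a CREB coactivator (0.87, adjusted p = 0.065), were not called. Both were called with median of ratios scaling (1.28, adjusted p = 0.019 for Mef2d, and 1.22, adjusted p = 0.031 for Crtc1), with quantile scaling and with voom. Crtc1 was also called without non-acclimated replicate 3 (1.06, adjusted p = 0.0479) or both libraries of replicate 3 (1.11, adjusted p = 0.026).

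Of 30 tested genes among the other immediate early genes, 2 rose and 4 fell. Btg2, which restrains proliferation, fell from 35.2 ± 17.2 to 3.37 ± 0.529 TPM (change -2.95, SE 0.36, limma adjusted p = 0.007), and Pim1, a kinase downstream of cytokine signaling, fell from 203 ± 12.6 to 75.1 ± 11.5 TPM (-1.44, SE 0.22, adjusted p = 0.0087). Both kept their call without any single library. The other called genes, named after their values were seen, were Zfp36 (-1.24, adjusted p = 0.0483) and Arc (-1.09, adjusted p = 0.034), which lost their call with median of ratios or quantile scaling and without any one library (adjusted p up to 0.12 and 0.11), and Sik1 (1.64, adjusted p = 0.032) and Csrnp1 (1.13, adjusted p = 0.034), which kept theirs under both scalings. Median of ratios scaling gave 4 higher and 2 lower in this list. Sik1 lost its call without any one library of replicates 1 and 2 (up to 0.11) and Csrnp1 without any one but cold-acclimated replicate 3 (up to 0.12). Both lost it with no filter (0.085 and 0.06), as did Zfp36 (0.096), which was also not called with voom (0.086) or a pseudocount of 0.1. In this list 4 genes (Zfp36, Dusp1, Cd69 and Npas4) were at least 2-fold above both other non-acclimated libraries in replicate 1, as Fos and Egr1 were.

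Among the 15 kinases and turnover factors of Fos and Jun, all tested, 1 rose and 1 fell (1 and 0 with median of ratios scaling, 1 and 2 with the replicate block). Rps6ka5, a kinase that phosphorylates CREB and histone H3, fell (-1.30, SE 0.33, adjusted p = 0.034), a call lost with median of ratios scaling (adjusted p = 0.08), with quantile scaling (0.17) and with no filter on low values (0.076), while Rps6ka3 had a change of -0.71 (adjusted p = 0.061). Of 10 tested genes of NFAT and calcineurin, 0 rose and 1 fell, the calcineurin catalytic subunit Ppp3cb (86.6 ± 4.93 to 22.5 ± 16.5 TPM, -2.11, adjusted p = 0.02, named after its value was seen). Its regulatory subunit Ppp3r1 (0.62, adjusted p = 0.075, and called with median of ratios scaling at 1.02, adjusted p = 0.021) and Nfatc3 (0.20, adjusted p = 0.52) did not pass. Without any one library of replicates 1 and 2, Rps6ka5 (adjusted p up to 0.12) and Ppp3cb (up to 0.076) lost their calls, and Ppp3cb also did with no filter (0.0519).

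Among known targets of AP-1, Egr and Nr4a in T cells, 0 of 18 tested genes rose and 2 fell. Il2ra, the interleukin-2 receptor alpha chain, fell from 1687 ± 333 to 286 ± 59.9 TPM (SD, n = 3 each, change -2.56, SE 0.27, limma adjusted p = 0.0067), and kept its call without any single library. Dgka, which limits diacylglycerol signaling and is a known Egr2 target, fell from 27.3 ± 7.1 to 7.43 ± 3.28 TPM (-1.79, adjusted p = 0.017), and lost its call without any one library of replicates 1 and 2 (adjusted p up to 0.067) and with quantile scaling (0.0542). Both were named after their values were seen. Tnf (1.18, adjusted p = 0.18) and Rnf128 (0.81, adjusted p = 0.14) were the targets that the rule for named genes took, and neither passed. Tnf was called without cold-acclimated replicate 3 (1.74, adjusted p = 0.035) or both libraries of replicate 3 (2.03, adjusted p = 0.017), and Rnf128 with the block and median of ratios scaling together (1.20, adjusted p = 0.022).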

How the data were processed

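RNA sequencing of D10 cells was analysed for 3 cold-acclimated (24 h at 26°C) and 3 non-acclimated (37°C) replicates. Per the labels and methods, the authors made strand-specific poly(A)+ libraries and used FastQC 0.11.7, Trimmomatic 0.38, HISAT2 2.1.0 with GRCm39 and featureCounts 1.6.3. The values used are TPM as deposited by the authors (counts divided by gene length, every library scaled to one sum). No source used here gives the annotation release, the gene lengths or the strand setting, and TPM depend on the share of RNA taken by other genes.

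The TPM of a gene were multiples of 1 value, which gave back its reads, whole within 1e-06 reads for 21195 of 21195 genes with reads. Each gene's length was chosen to give whole reads, so wholeness does not show that the reads are right. On the simulated data described below, the true reads were recovered for 98.91% of genes. Differential expression was tested with limma 3.58.1 (R 4.3.3, mean-variance trend) on log2(TPM + 1) for 12227 genes averaging 1 TPM or more, with Benjamini-Hochberg adjustment over all of them. Called genes had an adjusted p under 0.05 and changed by 1 or more (log2) in either direction. Egr3 was compared by an exact permutation test. Tested on simulated data for this comparison (12178 genes), limma called 200 of the 200 changed genes in the true direction, plus 10 unchanged ones. The median absolute change of these 200 genes was 1.92 (log2). The simulated libraries had the same added noise for all genes and no effect of the replicate number. Recovery of smaller changes was not tested. Nor was recovery at the spread of the real replicates (median standard error 0.54 for the factors and 0.32 for all tested genes). Correlations across genes of the deviations from a condition's means were -0.41 to 0.02 for libraries with different replicate numbers. As these deviations sum to 0 within a condition, those values are not separate evidence. Libraries with the same number deviated together (0.48, 0.50 and 0.51), which pairs the libraries by number. The main fit, planned without a replicate term, does not use this pairing. The replicate block was an alternative, and its standard error was smaller for every tested factor (0.23 against 0.59 for Ier2, 0.45 against 0.52 for Jund). Other alternatives were voom on recovered reads, median of ratios, quantile scaling, a pseudocount of 0.1, no filter or a mean of at least 5 TPM, and leaving out each library. Leaving out both libraries of a replicate number, and voom without the filter, were added after seeing the data. The replicate patterns counted for the factors, with the 2-fold mark and the ranks of non-acclimated replicate 1, were not planned either.

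The 10 factors and the 10 other lists were chosen with earlier results of these data known. Genes named are all 10 factors, the 2 tested genes of each list with the lowest p on the side of 0 where its median lies, and for each tested factor the most similar tested gene. Any other is said to be named after its values were seen, or serves a family sum, an overlap or a replicate pattern. Marker genes named by the rule for cell types are Cd247 (change 0.40, adjusted p = 0.32), Lat (0.75, 0.09), Ighm (-0.71, 0.13), Cd68 (0.03) and Lyz2 (0.33). A result for 1 gene of the kinase and turnover list is not reported here. Promoters came from a RefSeq table on GRCm38.p6, and no coordinates were converted. Python 3.11.15, numpy 2.4.6, pandas 2.3.3, scipy 1.17.1 and matplotlib 3.10.9 were used.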

Additional observations from a re-analysis of the deposited data

How the results depend on the processing

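Over all genes, 321 were called higher and 1954 lower. The replicate block gave 458 and 2679, median of ratios 802 and 1075, both together 1086 and 1544, quantile scaling 731 and 765, no filter 184 and 1121, and voom 408 and 1702 (527 and 1694 without the filter). A pseudocount of 0.1 gave 315 and 1953, and a mean of at least 5 TPM 227 and 1518. Leaving out single libraries gave 59 to 458 higher and 332 to 2734 lower, and leaving out both of a number 0 to 659 and 0 to 3107. Of the factors, 0 were called either way, with or without the block, 2 higher with the block and median of ratios together, 0 to 1 higher when libraries were left out, and 1 lower (Egr3) with no filter, in limma and voom.

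Directions turned for genes whose change was near 0. Fos, -0.01 in limma, was 0.43 with voom, 0.34 with median of ratios (also with the block), 0.47 with quantile scaling, 0.09 with a pseudocount of 0.1 and 0.44 with voom without the filter. Junb, -0.15, was 0.25 with median of ratios, with and without the block. Ier2, -0.12, was 0.03 with voom (with and without the filter) and with quantile scaling, and 0.28 with median of ratios, with and without the block. Cd68, 0.03, was -0.03 with a pseudocount of 0.1. Without single libraries the change ran from -1.01 to 1.36 for Fos, -0.41 to 1.26 for Fosb, -0.40 to 0.18 for Junb, -0.24 to 0.87 for Jund, -0.57 to 0.42 for Ier2, -0.66 to 1.33 for Lyz2 and -0.45 to 0.46 for Cd68. Without both libraries of replicate 1 it turned for Fos (1.18) and Jund (-0.25), without those of replicate 2 for Fosb (-0.51) and Jund (-0.03), and without those of replicate 3 for Fosb (-0.47), Junb (0.01), Ier2 (0.08) and Cd68 (-0.20). Jun (0.45 to 1.39), Nr4a1 (0.45 to 1.54), Egr1 (0.25 to 3.16) and Egr2 (-0.87 to -0.04) kept their sign there. The cause was not tested. With 3 replicates per condition, p-values measure the spread between these cultures, and the depth of Fosb and Egr3 limits their folds.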

Other observations

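Several of the factors are short genes without introns in the counted models. On GRCm39, Junb (chr8:85703538-85705377) and Ier2 (chr8:85387960-85389481) lie 314056 bases apart on the same chromosome. For Jun, Junb, Jund and Ier2, 4 of the 10 factors, the gene's span equals the counted exonic length, as it does for 2.29% of the 10446 tested protein-coding genes. A span under 6000 bases was found for 7 of 10 factors and for 15.4% of those genes, and the median span was 3568 bases against 21722. Of the 239 tested protein-coding genes whose span equals their exonic length, 1.67% were called higher and 5.86% lower at 26°C, beside 2.13% and 16.8% of all tested protein-coding genes, with a median change of -0.19 against -0.35.

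Over the 6 libraries, the tested gene whose log2(TPM + 1) was most like each factor was Abcc1 for Fos (Pearson r = 0.99), Itga2b for Fosb (0.97), Rpl12 for Jun (0.99), Tnk1 for Junb (0.99), Pcgf2 for Jund (0.98), Xpa for Egr1 (0.97), Il27ra for Egr2 (0.99), Tent5d for Ier2 (0.99) and Bscl2 for Nr4a1 (0.99). Each is the highest value among the tested genes over 6 points that share libraries and depth, so these are descriptions only. Among the factors themselves, r was 0.93 for Fos and Fosb, 0.90 for Fos and Egr1, 0.86 for Fosb and Egr1, 0.97 for Junb and Ier2, and 0.94 for Junb and Egr2.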
